A study of Agaricus blazei with 33 samples.

Results

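Tyrosinases are copper enzymes that add oxygen to monophenols and then oxidise the resulting diphenols to quinones, which join into brown and black pigments. In *Agaricus bisporus*, the button mushroom, they are known for the browning of bruised or ageing fruit bodies, and the heavy subunit of its enzyme is accompanied by a light subunit with a lectin-like fold. The genes described here are those of *Agaricus blazei* whose deposited annotation carries the common central domain of tyrosinase (Pfam PF00264), together with A02061, a gene that the study picked for quantitative PCR. A02061 carries the domain too, so the rule gave 5 genes of the 10337 in the table: A02061, A00406, A02012, A02039 and A08292. The annotation of A00406 in the study's supplement also matches a polyphenol oxidase of *A. blazei* and the PPO1 enzyme of *A. bisporus*; for the other 4 genes only the domain was used here.

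Gene expression was measured by RNA sequencing in 33 libraries of heterokaryon strain JA grown on compost, with 3 replicate libraries for each of 11 conditions. The conditions were mycelia taken 20 days after casing, primordia at a pinhead-like stage before the velum had formed, and the whole fruit body, the pileus (cap) and the stipe (stem) at the button, harvest and maturation stages. All conditions shared the strain, and no treatment was applied. The labels do not say whether replicates came from separate cultures, so the p-values measure the spread between libraries, which may be partly technical. Since these are bulk samples, fewer cells of a type and less RNA per cell cannot be told apart. Levels are given as FPKM, fragments scaled to gene length and sequencing depth, as deposited. The reads on genes, recovered from the values, ranged from 15573864 to 21454052 per library (median 18106545), and the lowest value of any member rested on 115 reads, so that counting error was small beside the differences described.

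Over all genes, 6 libraries stood apart from their own condition: each correlated better with the mean of another condition than with the other libraries of its own. The mean of the own condition rested on 2 libraries and that of any other on 3. Whole fruit bodies hold both tissues, so that nearness to 1 tissue does not by itself go against their label. Whole fruit body 2 at the button stage was nearest to the button stipe and whole fruit body 3 to the button pileus, while button stipe 1 was nearest to the button whole fruit body. At maturation, whole fruit body 1 was nearest to the stipe, whole fruit body 3 to the pileus, and the library labelled maturation pileus 3 to the whole fruit body. A gene with the domain of Spo11, the enzyme that starts meiotic recombination, which takes place in the gills of the cap, showed the same split at maturation. This gene, A09162, stood at 109 and 99.5 FPKM in maturation pileus 1 and 2 and at 11.3 FPKM in the library labelled maturation pileus 3, while the 3 maturation stipes held 2.71 to 4.52 FPKM. The summed level of all 5 detected meiosis genes was 674, 562 and 270 FPKM in these pileus libraries and 206 to 225 FPKM in the stipes, and none of the 5 was at 0 in any of them. Of the other 4 genes, A09411 and a HORMA-domain gene without an A number followed the Spo11-domain gene, with 262, 204 and 40.6 FPKM and 169, 134 and 32.1 FPKM in the pilei. The remaining HORMA-domain genes did not: A04333 held 61.7, 52.1 and 96.1 FPKM in the pilei and 75.1 to 80.9 FPKM in the stipes, and A03768 held 72.7, 72.6 and 89.7 FPKM and 70.1 to 81.8 FPKM. At the button stage A09162 reached only 4.85 to 6.43 FPKM in the pileus and 1.87 to 2.31 FPKM in the stipe, so that it separates the tissues less there. Results that rest on these libraries are given with and without them, a choice made after seeing the data. The 6 libraries were picked for departing from their own condition in these same data. Leaving them out therefore narrows the spread, and the p-values of those fits are likely too small.

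The 5 genes lie on 3 contigs of the assembly of JA-15036, a monospore strain. A02012 (847471-849568, minus strand), A02039 (973986-975932, minus strand) and A02061 (1085863-1088080, plus strand) lie in that order on contig 15. A stretch of 124 kb separates A02012 from A02039 and 110 kb separates A02039 from A02061, with 28 genes in each stretch. A00406 lies on contig 10 (46870-48937, plus strand) and A08292 on contig 6 (312593-314954, plus strand). The gene lengths in the table were 1860 bases for A02061, 1731 for A00406, 1746 for A02012, 1449 for A02039 and 2022 for A08292, each a multiple of 3 and 337 to 498 bases shorter than the span on the contig. No other gene of the table overlapped any of the 5, whereas it is not known how the authors treated reads that match several genes of the family.

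The study's own PCR primers for A02061 are shown because they are the sequences with which this gene was followed in mycelia and primordia. Both have 20 bases, with 11 and 10 G or C, and are written 5′ to 3′ in lower case throughout since no base is singled out. Their place within the gene on contig 15 was not determined, because no genome sequence was used here.
A02061 forward: tcaggaagaggcgaaggaga
A02061 reverse: tggtagcgaagcattgggtt

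A02061 was the main tyrosinase transcript of the fruit body and was almost silent in mycelia. Its level was 5.78, 6.85 and 6.37 FPKM in the 3 mycelia libraries, where it ranked 7337 to 7533 among all genes. It stood at 1804, 1238 and 1913 FPKM in primordia, ranking 27 to 44. Every primordia library thus lay far above every mycelia library. The means, 6.33 ± 0.54 and 1652 ± 362 FPKM (SD, n = 3 each), differed 261-fold, and on the log2(FPKM + 0.1) scale the rise was 7.98 ± 0.18 (SE; limma, adjusted p = 2.95e-07).

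**Figure D1:**
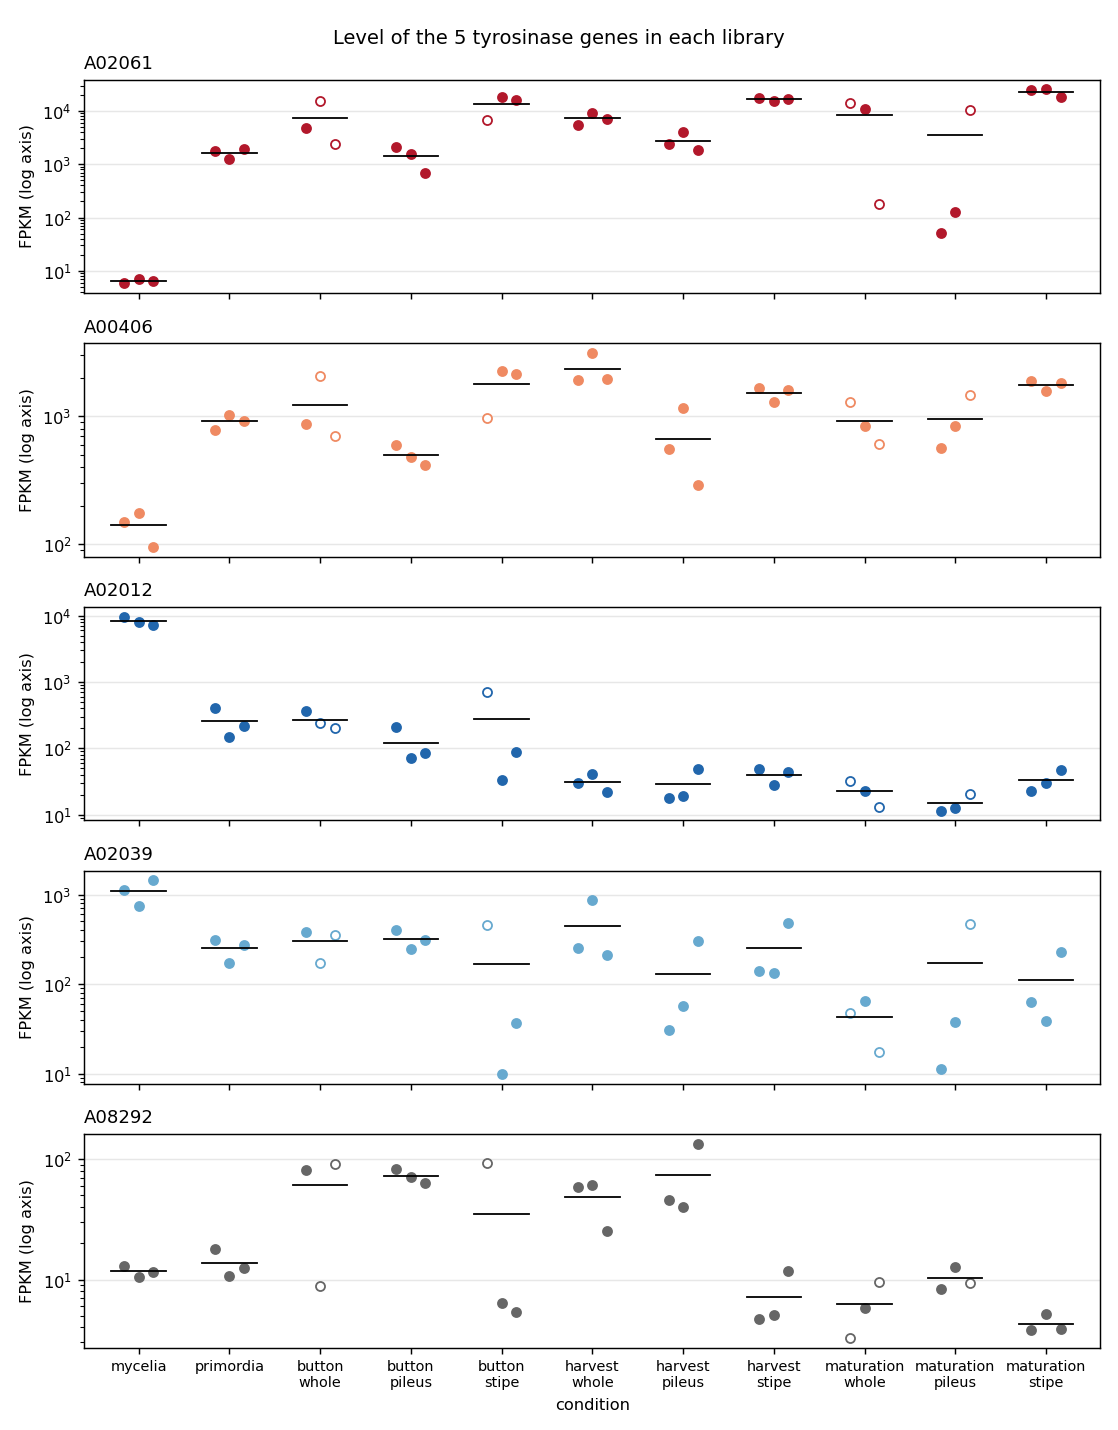
FPKM of each tyrosinase gene (log axis) in the 33 libraries, by condition; each point is 1 library, open points are the 6 libraries nearer to another condition, and the line is the mean of 3 libraries. A02061 goes from 5.78 to 6.85 FPKM in mycelia to 18196 to 25476 FPKM in the maturation stipe, while A02012 goes from 7121 to 9618 FPKM in mycelia to 11.5 to 20.6 FPKM in the maturation pileus.

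In the fruit body A02061 was a gene of the stipe more than of the pileus. Button stipes held 6645, 18214 and 16290 FPKM and button pilei 2143, 1560 and 673 FPKM. At harvest the stipes held 17631, 15675 and 16493 FPKM and the pilei 2363, 4004 and 1890 FPKM. At each of these stages the lowest stipe lay above the highest pileus, also with button stipe 1 included. Maturation stipes held 25020, 25476 and 18196 FPKM, which made A02061 the gene of rank 2 to 4 in those libraries, with 2.72 to 4.03% of all reads on genes. Maturation pilei held 51.8, 129 and 10257 FPKM. The first 2 of these were the lowest fruit body values of the gene, while the library labelled maturation pileus 3, which is the one with a low level of the Spo11-domain gene, was close to the whole fruit bodies.

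Whole fruit bodies lay between the tissues, with 4868, 15139 and 2408 FPKM at the button stage, 5480, 9218 and 7084 FPKM at harvest and 14330, 11022 and 181 FPKM at maturation. At the button and maturation stages the spread followed the split among the libraries. Button whole fruit body 2, nearest to the stipe over all genes, was within the range of the stipes, and button whole fruit body 3, nearest to the pileus, was just above the pilei. Maturation whole fruit body 3 held 181 FPKM of A02061 beside 124 FPKM of the Spo11-domain gene, against 14330 and 6.49 FPKM in maturation whole fruit body 1. Maturation whole fruit body 2 held 38.2 FPKM of the Spo11-domain gene, within the range of the harvest pilei (23.4 to 48.3 FPKM). Its A02061 level was nonetheless 11022 FPKM. The part that the mix of tissues in these libraries had in the A02061 level was not tested.

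**Figure D2:**
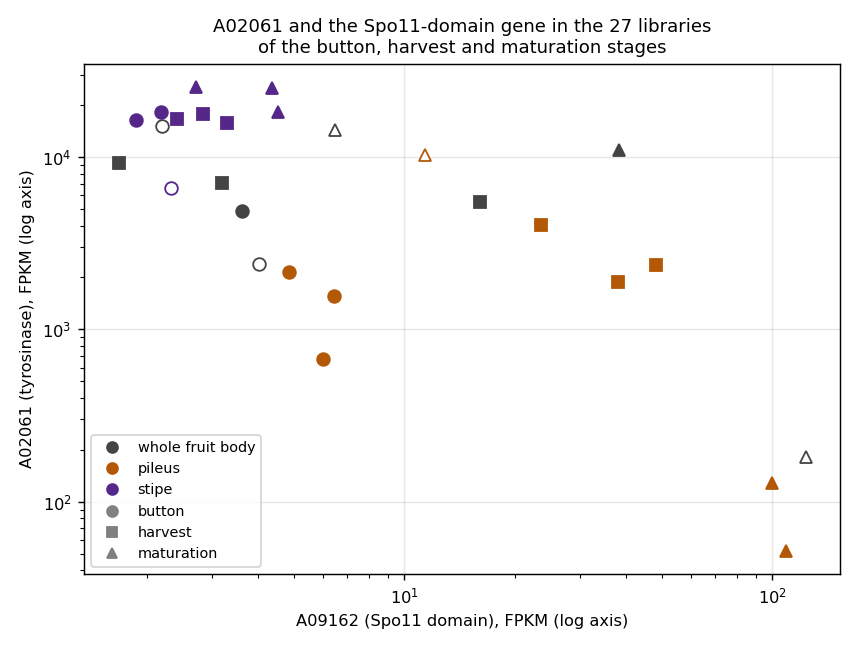
FPKM of A02061 against FPKM of the Spo11-domain gene A09162 (both log axes) in the 27 libraries of the button, harvest and maturation stages; colour gives the tissue, shape the stage, and open symbols are the 6 libraries nearer to another condition. The 3 libraries with A09162 at 99.5 to 124 FPKM are those with the lowest A02061, 51.8 to 181 FPKM, and include 1 library labelled whole fruit body. Maturation whole fruit body 2 has 38.2 FPKM of A09162 and 11022 FPKM of A02061.

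Ordered by mean, A02061 was highest in the maturation stipe (22897 ± 4078 FPKM; SD, n = 3), followed by the harvest stipe (16600 ± 983 FPKM) and the button stipe (13717 ± 6199 FPKM). The whole fruit bodies came next with means of 7261 to 8511 FPKM, then the maturation pileus (3479 ± 5870 FPKM), the harvest pileus (2753 ± 1110 FPKM), primordia (1652 ± 362 FPKM), the button pileus (1459 ± 740 FPKM) and mycelia. Of the 10 neighbouring pairs in this order, 8 had overlapping libraries. The exceptions were the maturation above the harvest stipe and the button pileus above mycelia. The place of the maturation pileus rested on the library labelled maturation pileus 3: without it the mean was 90.2 FPKM (n = 2), below every condition but mycelia. Without all libraries that stand apart the button stipe (17252 FPKM, n = 2) also came before the harvest stipe, and the whole fruit bodies ranged from 4868 FPKM at the button stage to 11022 FPKM at maturation (n = 1 each).

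A00406 was likewise lowest in mycelia, over a narrower range. It held 151, 176 and 95.3 FPKM in mycelia and 785, 1026 and 919 FPKM in primordia. The groups did not overlap, and the rise was 6.47-fold between means, or 2.73 ± 0.24 on the log2 scale (SE; limma, adjusted p = 5.05e-05). Fruit body means ranged from 497 ± 91.5 FPKM in the button pileus to 2324 ± 681 FPKM in the harvest whole fruit body (SD, n = 3 each), and 9 of the 10 neighbouring pairs in its order overlapped, the exception being the button pileus above mycelia.

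The other 2 genes of contig 15 had their highest means in mycelia. A02012 held 9618, 8025 and 7121 FPKM in mycelia, where it ranked 9 to 12 among all genes and took 1.13 to 1.55% of the reads on genes, and 406, 146 and 217 FPKM in primordia. The fall was 32.2-fold between means and -5.13 ± 0.36 on the log2 scale (SE; limma, adjusted p = 1.89e-05). After the button stage A02012 was low throughout: the 18 libraries of the harvest and maturation stages held 11.5 to 49.4 FPKM. A02039 held 1126, 735 and 1440 FPKM in mycelia and 314, 170 and 271 FPKM in primordia, a 4.37-fold difference between means and a fall of 2.12 ± 0.31 on the log2 scale (SE; adjusted p = 0.000612). In the fruit body A02039 ranged from 9.83 to 867 FPKM, with replicates of 1 condition up to 46.1 times apart. This range overlaps that of A02012 in the fruit body, 11.5 to 712 FPKM. The highest A02039 value there, in harvest whole fruit body 2, lay above mycelia 2. All 10 neighbouring pairs in the order of A02039 overlapped.

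A08292 was the lowest of the 5 in most conditions and did not separate mycelia from primordia. Its level was 13.0, 10.4 and 11.7 FPKM in mycelia and 17.8, 10.6 and 12.4 FPKM in primordia, which overlap. The log2 difference was 0.19 ± 0.21 (SE; adjusted p = 0.436). Its highest means were those of the harvest pileus (73.3 ± 52.7 FPKM) and the button pileus (72.6 ± 9.32 FPKM; SD, n = 3 each), and its lowest that of the maturation stipe (4.29 ± 0.76 FPKM); all 10 neighbouring pairs in the order overlapped.

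From mycelia to primordia, then, 4 of the 5 genes changed by the rule used throughout, an adjusted p under 0.05 and a log2 change of at least 1: A02061 and A00406 rose and A02012 and A02039 fell. Of all 9485 genes tested, 37.5% changed by the same rule, 15.1% upward and 22.5% downward. With 5 members the share is described and not tested against that background. The median log2 change was 0.19 over the 5 genes and -0.04 over all genes. The fall of A02039 did not pass when all 33 libraries were fitted together (adjusted p = 0.123).

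The tyrosinase gene that led the family differed between mycelia and fruit body. A02012 made up 82.1 to 89.6% of the summed FPKM of the 5 genes in mycelia, and A02061 0.0530 to 0.0765%. In primordia A02061 made up 47.8 to 57.4% and A02012 5.62 to 12.2%. Over all libraries A02061 was the highest member in 27, A02012 in the 3 mycelia libraries, and A00406 in 3 libraries. Those 3 were maturation pileus 1 and 2 and maturation whole fruit body 3, where A00406 held 569, 838 and 605 FPKM and made up 73.3 to 87.3% of the sum. The 5 genes together took 0.108 to 4.27% of the reads on genes, with the lowest share in maturation pileus and the highest in maturation stipe.

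**Figure D3:**
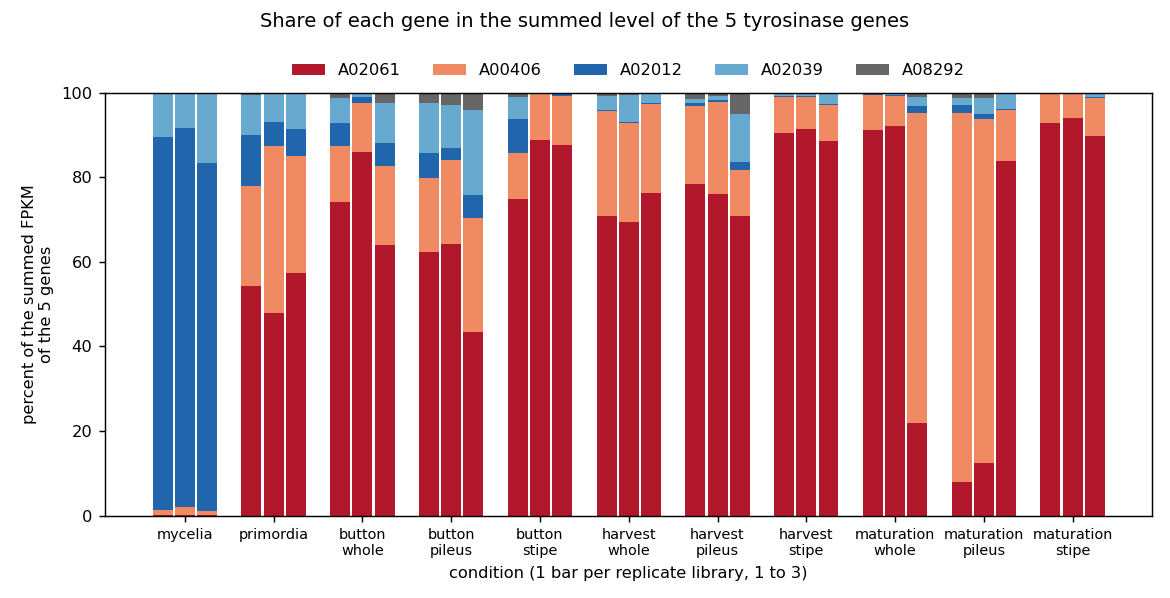
Percent of the summed FPKM of the 5 tyrosinase genes that each gene made up, with 1 bar per library in replicate order within each condition. A02012 fills 82.1 to 89.6% of the mycelia bars, A02061 is the largest part of 27 bars, and A00406 fills 73.3 to 87.3% of 3 bars of the maturation stage.

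Along the whole fruit body, few members passed the test. From primordia to the button stage none of the 5 did, where 0.0324% of all genes were called; 1 gene, A02061, had an unadjusted p under 0.05, with a log2 difference of 1.79 ± 0.66 (SE; limma, adjusted p = 0.353), and a test on recovered reads (voom) called none. Each button library held more A02061 than each primordia library. A08292 held 81.9, 8.77 and 91.6 FPKM at the button stage, the low value being that of button whole fruit body 2, and was called without this library (2.69, adjusted p = 0.00284). Without button whole fruit body 2 and 3, which left 1 button library assumed to vary like the primordia, it was called with a log2 difference of 2.61 ± 0.29 (adjusted p = 0.0174), where 2.56% of all genes were called.

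From the button to the harvest whole fruit body A02012 fell, from 362, 236 and 200 to 30.2, 40.2 and 21.7 FPKM, without overlap. The log2 change was -3.11 ± 0.38 (SE; limma, adjusted p = 0.0465), and it was the only member called where 0.236% of all genes were. The call lay at the threshold: it was lost on leaving out any 1 of the 6 libraries, with log2 changes of -3.33 to -2.87, and in the test on recovered reads (adjusted p = 0.0525). Of all genes, these 6 fits called 0 to 3 each and the test on recovered reads 0. The loss therefore says little on this gene in particular. Without the libraries that stand apart the button stage is 1 library, assumed to vary like the harvest libraries. The log2 change of A02012 was then -3.60 ± 0.38 (adjusted p = 0.333) in a fit that called no gene at all (0%), which says nothing on the stability of this call.

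From harvest to maturation A02039 and A08292 were called in the whole fruit body, where 13.4% of all genes were. A02039 fell from 252, 867 and 211 to 47.5, 64.3 and 17.4 FPKM, a log2 change of -3.25 ± 0.65 (SE; limma, adjusted p = 0.0161). A08292 fell from 59.1, 60.7 and 25.1 to 3.27, 5.82 and 9.51 FPKM, a log2 change of -2.96 ± 0.87 (adjusted p = 0.0499). For both genes every maturation library lay below every harvest library. The A08292 call lay at the threshold and was lost on leaving out any 1 of 5 of the 6 libraries (adjusted p = 0.0913 to 0.136), the exception being maturation whole fruit body 3. Only 4 of all 15 alternatives kept this call, against 14 of 15 for A02039. A00406 held 1296, 846 and 605 FPKM at maturation, below all harvest libraries. Its log2 difference of -1.38 ± 0.47 (adjusted p = 0.0767) passed when the values were scaled to library totals (adjusted p = 0.0404). A08292 did not pass under that scaling. Leaving out the libraries that stand apart left 1 maturation library, assumed to vary like the harvest libraries, so that this fit says little on whether the calls hold. It gave log2 changes of -2.92 ± 0.58 for A08292 (adjusted p = 0.0480) and -2.48 ± 0.86 for A02039 (adjusted p = 0.122), where 10.8% of all genes were called. The A02061 change at this step, -1.22 ± 1.54 (SE; adjusted p = 0.605), was of the opposite sign without maturation whole fruit body 3 (0.82).

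The comparison of the pileus with the stipe asks where in the fruit body each gene was expressed, and it was made within each stage in a fit of the 18 tissue libraries. At the button stage A00406 and A08292 were called, where 17.9% of all genes were. A00406 was lower in the pileus, with 595, 481 and 415 FPKM against 960, 2241 and 2148 FPKM in the stipe, a log2 difference of -1.76 ± 0.45 (SE; limma, adjusted p = 0.00917). A08292 was higher in the pileus, with 82.4, 71.4 and 63.9 FPKM against 92.7, 6.40 and 5.33 FPKM, a log2 difference of 2.28 ± 0.79 (adjusted p = 0.0401). The overlap for A08292 came from button stipe 1, the library nearest to the whole fruit body. A02061 differed by -3.26 ± 1.30 (adjusted p = 0.0696) although its groups did not overlap.

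Button stipe 1 also departed from the other stipes in A02012 (712 against 33 and 87.5 FPKM) and in A02039 (453 against 9.83 and 37.2 FPKM). In the fit without the libraries that stand apart, 4 of the 5 genes were called at this stage, where 29.5% of all genes were. These were A02061 (-3.72 ± 0.47, adjusted p = 2.20e-05) and A00406 (-2.16 ± 0.40, adjusted p = 0.000408), lower in the pileus, and A02039 (4.03 ± 0.97, adjusted p = 0.00285) and A08292 (3.60 ± 0.46, adjusted p = 2.15e-05), higher in the pileus. In the fit of all libraries the A00406 call was lost without button stipe 2 (-1.55, adjusted p = 0.0504), and that of A08292 without any 1 of 5 of the 6 button libraries, the exception being button stipe 1.

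At harvest, where no tissue library stood apart, the same genes were called: A00406 and A08292, against 31.6% of all genes. A00406 held 558, 1150 and 293 FPKM in the pileus and 1671, 1298 and 1596 FPKM in the stipe, a log2 difference of -1.40 ± 0.45 (SE; limma, adjusted p = 0.0173). A08292 held 45.5, 40.3 and 134 FPKM in the pileus and 4.71, 5.05 and 11.8 FPKM in the stipe, a log2 difference of 3.24 ± 0.79 (adjusted p = 0.00387). Neither gene overlapped between the tissues. The A00406 call was lost without harvest pileus 3 (-0.92, adjusted p = 0.101) or harvest stipe 1 (-1.33, adjusted p = 0.0533).

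For A02061 the harvest difference was -2.66 ± 1.30 (SE; adjusted p = 0.0995) in the fit of all 18 tissue libraries and -2.66 ± 0.42 (adjusted p = 8.90e-05) without the libraries that stand apart. The difference itself is the same, because the left-out libraries are of other stages, and only the shared estimate of the spread changed. In that fit 3 of the 5 genes were called at harvest, A02061, A00406 and A08292, where 34% of all genes were.

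At maturation A02061 was the only member called in the fit of all tissue libraries, where 25.1% of all genes were. The log2 difference between pileus and stipe was -5.79 ± 1.30 (SE; limma, adjusted p = 0.00313), and without the library labelled maturation pileus 3 it was -8.11 (adjusted p = 1.27e-08 without both tissue libraries that stand apart). The median pileus library held 194 times less A02061 than the median stipe library, while the means, which take in the library labelled maturation pileus 3, differed 6.58-fold. A00406 held 569, 838 and 1468 FPKM in the pileus and 1876, 1573 and 1811 FPKM in the stipe (-0.98 ± 0.45, adjusted p = 0.0896). A08292 held 8.40, 12.8 and 9.41 FPKM in the pileus and 3.79, 5.17 and 3.91 FPKM in the stipe (1.22 ± 0.79, adjusted p = 0.223). For these genes too the groups did not overlap, and without the library labelled maturation pileus 3 alone A00406 was called (-1.34, adjusted p = 0.0199).

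At maturation 4 of the 5 genes were called without the libraries that stand apart, where 38.4% of all genes were. A02061, A00406 (-1.34 ± 0.40, adjusted p = 0.00858) and A02012 (-1.39 ± 0.54, adjusted p = 0.0354) were lower in the pileus and A08292 (1.27 ± 0.46, adjusted p = 0.0252) was higher. A02061 and A00406 had the lower level in the pileus, and A08292 the higher, at all 3 stages and with or without these libraries, whether or not the difference passed the test. A02012 had the lower level in the pileus at all 3 stages in the fit of all libraries (-0.25, -0.59 and -1.13, none called), but the higher at the button stage without button stipe 1 (0.99). On the log2 scale A02039 had the higher level in the pileus at the button stage and the lower at harvest and maturation. Its libraries overlapped between the tissues at all 3 stages. Its mean FPKM at maturation was higher in the pileus (174 against 110), with the library labelled maturation pileus 3 included.

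**Figure D4:**
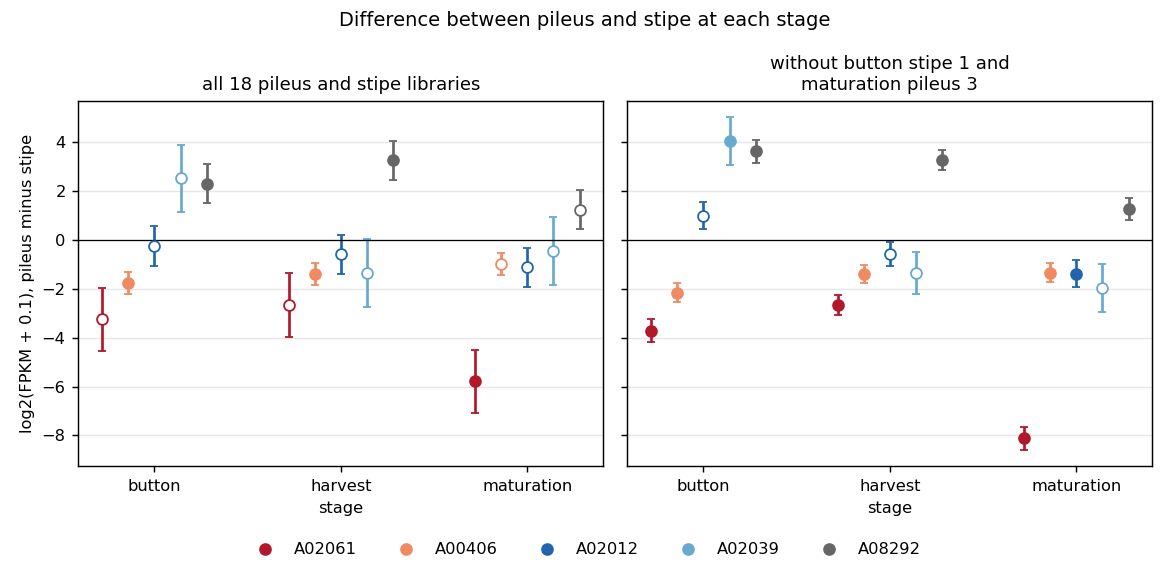
Difference between pileus and stipe on the log2(FPKM + 0.1) scale at each stage (points, with SE bars) for the 5 tyrosinase genes, with all 18 tissue libraries (left) and without button stipe 1 and maturation pileus 3 (right); filled points passed the rule. A02061 goes from -3.26, -2.66 and -5.79 on the left to -3.72, -2.66 and -8.11 on the right, while A08292 is above 0 in all 6 places.

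Whether the tissue difference changed between the button and maturation stages was tested as an interaction. None of the 5 genes passed in the fit of all tissue libraries, where 9.38% of all genes did; none had an unadjusted p under 0.05, and the test on recovered reads called none. The change was -2.53 ± 1.84 for A02061 (SE; limma, adjusted p = 0.411), -2.98 ± 1.95 for A02039 (adjusted p = 0.355) and between -1.06 and 0.78 for the other 3. Without the libraries that stand apart 4 genes passed, where 26.6% of all genes did: A02061 (-4.40 ± 0.67, adjusted p = 0.000192), A02039 (-6.00 ± 1.37, adjusted p = 0.00350), A02012 (-2.38 ± 0.76, adjusted p = 0.0236) and A08292 (-2.34 ± 0.65, adjusted p = 0.0108). As the left-out libraries were picked from the same data, these p-values are likely too small. Without button stipe 1 alone A08292 passed (-2.38, adjusted p = 0.0170), and without the library labelled maturation pileus 3 alone A02061 did (-4.86, adjusted p = 0.000193).

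Within the pileus, none of the members passed from button to harvest, where 0.728% of all genes did. A02012, the 1 member with an unadjusted p under 0.05, held 208, 70.0 and 83.7 FPKM at the button stage and 17.9, 19.4 and 49.4 FPKM at harvest, a log2 difference of -2.05 ± 0.80 (SE; limma, adjusted p = 0.295; voom called none). It was called in the fit without the libraries that stand apart (adjusted p = 0.0171), where 4.28% of all genes were. From harvest to maturation A08292 fell in the pileus, with a log2 change of -2.63 ± 0.79 (adjusted p = 0.0196), where 18.4% of all genes were called, and the groups did not overlap. This call was lost without harvest pileus 3 (-2.08, adjusted p = 0.0923). A02061 changed by -2.68 ± 1.30 (adjusted p = 0.126) with all libraries and by -5.00 ± 0.47 (adjusted p = 3.15e-06) without those that stand apart, where 19.5% of all genes were called.

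Within the stipe no member passed at either step, where 12% of all genes did from button to harvest and 8.47% from harvest to maturation. None had an unadjusted p under 0.05 at either step, and voom called none. A02061 was high in every stipe library, at 6645 to 25476 FPKM. Without button stipe 2 alone A02012 was called from button to harvest (-2.68, adjusted p = 0.0210). Without the libraries that stand apart A02039 was called at this step (3.43 ± 0.97, adjusted p = 0.0129), where 15.3% of all genes were, and no member from harvest to maturation, where 13.6% were.

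Across the 11 conditions the levels of A02061 and A00406 went together (Pearson r = 0.91 of the condition means on the log2 scale), as did those of A02012 and A02039 (r = 0.74), while A02061 and A02012 went apart (r = -0.68). These values describe 11 points, of which the mycelia condition lies far from the rest. The 5 genes of the table most like A02061 by this measure were a gene with an amino acid permease domain on contig 5 (986015-990185; r = 0.987), A07341 (r = 0.976), A07592 with a glycosidase domain described as alpha-L-rhamnosidase (r = 0.972), and 2 genes without a described domain, on contig 5 (1094890-1097930; r = 0.966) and contig 2 (2650061-2652533; r = 0.965). All 5 were low genes, with means of 2.52 to 11.4 FPKM over the libraries, and 67 of 9449 genes had an r of at least 0.9.

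On 1 side of A02012 and of A02061 the next gene had a pattern like theirs, a feature singled out after the values were seen. A02014, a gene without a described domain, starts 1903 bp from A02012 and is on the opposite strand. It held 12793, 12740 and 11011 FPKM in mycelia and 550, 212 and 369 FPKM in primordia. The fall was -5.11 ± 0.33 on the log2 scale (SE; limma, adjusted p = 1.46e-05), against -5.13 ± 0.36 for A02012. Over the harvest and maturation stages A02014 stood at 0.901 to 37.6 FPKM, and its correlation with A02012 over the 11 condition means on the log2 scale was 0.987. Per length, A02014 stood above A02012 in all mycelia and primordia libraries and below it in all 18 libraries of the harvest and maturation stages. The gene on the other side of A02012, A02011, had no such pattern, with means of 10.7 FPKM in mycelia, 4.81 FPKM in primordia and 17.0 FPKM in the maturation stipe.

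The gene 1392 bp before A02061 on the same strand (1082397-1084470) has alcohol dehydrogenase domains and was added to the annotation from the reads. It held 1.76, 1.42 and 1.31 FPKM in mycelia and 31.4, 30.4 and 32.1 FPKM in primordia, a rise of 4.31 ± 0.15 on the log2 scale (SE; limma, adjusted p = 1.35e-06). It was lower in the pileus than in the stipe at the button stage (-2.51 ± 0.38, adjusted p = 0.000449) and at harvest (-1.59 ± 0.38, adjusted p = 0.00327). At maturation it was lower in the pileus as well (-1.05 ± 0.38, adjusted p = 0.0366). Within the pileus, however, the level of this gene rose from harvest to maturation (1.53 ± 0.38, SE; limma, adjusted p = 0.00675). Maturation pileus 1 and 2 held 55.9 and 51.4 FPKM of this gene, above the button and harvest pilei. In these same libraries, maturation pileus 1 and 2, A02061 had its lowest pileus values. The gene after A02061 (1090201-1092117) stood at means of 0.474 to 1.53 FPKM in all conditions.

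**Figure D5:**
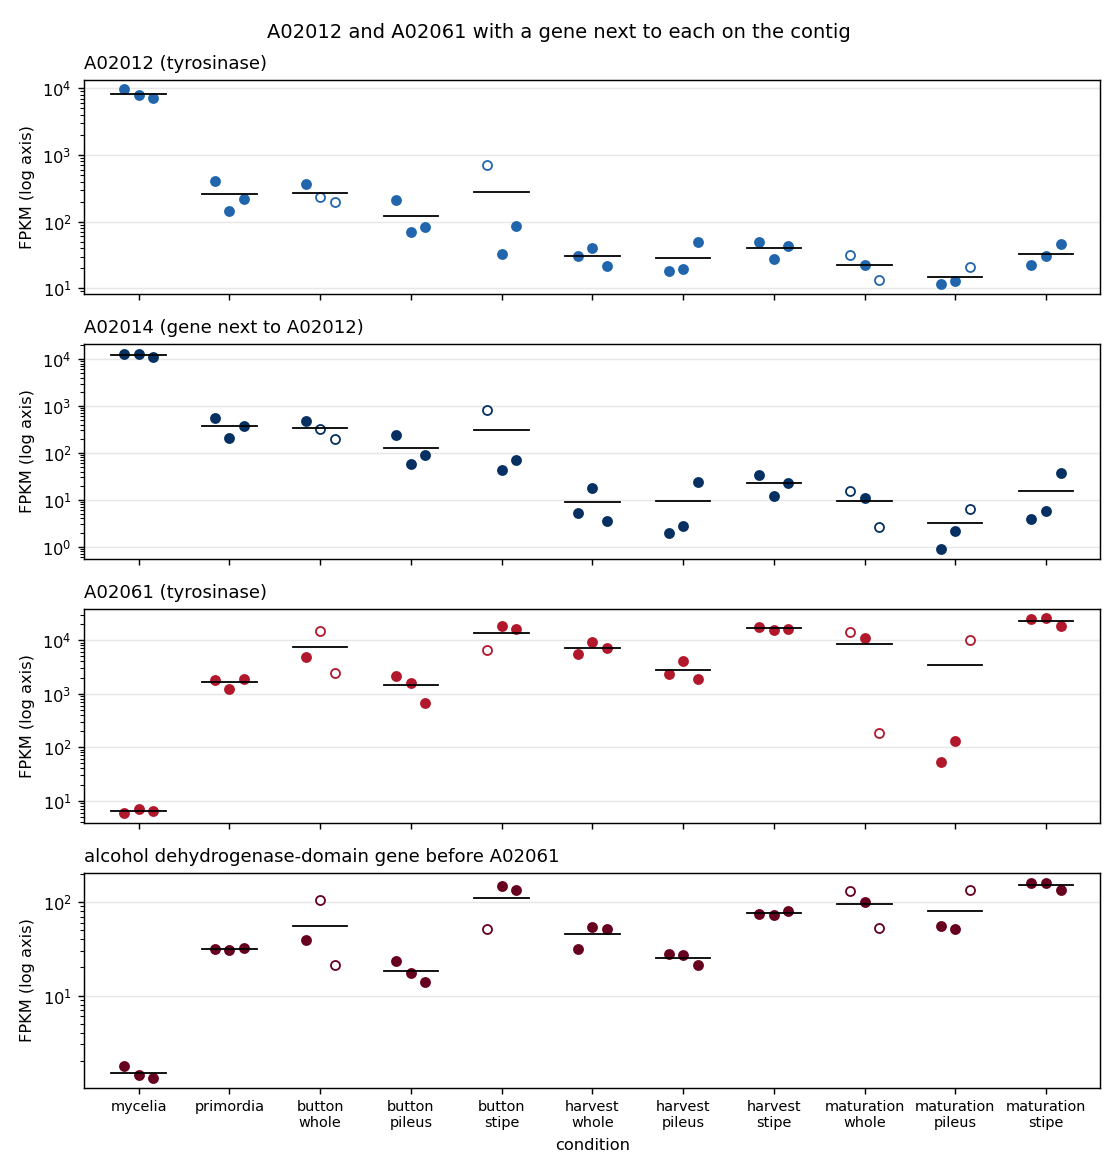
FPKM (log axes) of A02012 and A02061 and of a neighbouring gene of each, A02014 and the gene with alcohol dehydrogenase domains, in the 33 libraries; each point is 1 library, open points are the 6 libraries nearer to another condition, and the line is the mean of 3 libraries. A02012 and A02014 are both highest in mycelia, at 7121 to 9618 and 11011 to 12793 FPKM. In maturation pileus 1 and 2 the neighbour of A02061 is at 55.9 and 51.4 FPKM, above the button and harvest pilei. A02061 is at 51.8 and 129 FPKM in these 2 libraries.

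The genes of the surrounding chemistry were counted in 2 comparisons, primordia against mycelia and harvest pileus against harvest stipe, where the backgrounds were 15.1% higher and 22.5% lower, and 16.7% higher and 14.9% lower. The direction of the background depends on the scaling: scaled to library totals, 2286 genes were higher and 1595 lower in primordia, against 1431 and 2130 as deposited, and 2302 higher and 937 lower in the harvest pileus, against 1558 and 1391. All-gene medians were -0.04 and 0.01 on the log2 scale.

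The shikimate and aromatic amino acid synthesis genes include steps to tyrosine, but not all of them lead to it. Of these genes 14 of 15 were tested, and 1 rose and 1 fell from mycelia to primordia (median log2 change 0.14). The riser was A07284, a DAHP synthase that opens the pathway (1.34 ± 0.18, SE), and A09395, with a shikimate dehydrogenase domain, fell (-1.22 ± 0.29). In the harvest pileus 3 of the 14 were higher and 1 lower than in the stipe (median -0.05). The largest were the anthranilate synthase genes A04312 (1.86 ± 0.61) and A04883 (1.86 ± 0.57), which belong to the tryptophan branch and not to that of tyrosine. The 1 lower gene, without an A number, has a chorismate mutase domain (-1.02 ± 0.31). Its means were 8.31 FPKM in the harvest pileus and 16.9 FPKM in the harvest stipe.

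Among the 7 aromatic amino acid breakdown genes, 1 rose and 3 fell in primordia (median -0.99). The largest fall was that of A01364, an aromatic amino acid lyase of the kind that removes ammonia from phenylalanine, from a mean of 980 to 75.3 FPKM (-3.74 ± 0.26). At harvest 1 of the 7, A01364 again, was higher in the pileus (86.8 against 4.16 FPKM, 4.35 ± 0.64) and 1 lower (median 0.74). Of the 10 copper handling genes 1 fell in primordia, the copper/zinc superoxide dismutase gene A06607 (-1.59 ± 0.17; median 0.15). At harvest A06607 was higher in the pileus (2.23 ± 0.66) and A03902, with the copper fist domain of copper-responsive regulators, lower (-1.31 ± 0.35; median 0.35). Both copper amine oxidase genes fell in primordia (median -1.51), A03201 (-1.75 ± 0.22) and A03199 (-1.26 ± 0.28), and 1 of the 2, A03201, was lower in the harvest pileus (median -1.0).

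Ricin-type lectin domains, the fold of the light subunit in *A. bisporus*, were found in 13 genes. Of the 12 tested, 1 rose and 8 fell in primordia (median -1.96), led by A07014 from a mean of 130 to 3.07 FPKM (-5.23 ± 0.36). At harvest 4 of 10 were higher in the pileus and 1 lower (median 1.0), again with A07014 the largest (5.04 ± 0.60). Multicopper oxidases, the family of laccases, the other phenol oxidases of fungi, changed in both directions in primordia: 4 of 20 rose and 7 fell (median -0.02). The largest changes were a fall of A01869 from a mean of 215 to 0.141 FPKM (-9.72 ± 0.41) and a rise of A05193 from 1.23 to 240 FPKM (7.74 ± 0.46). At harvest 6 of 19 were higher in the pileus and 1 lower (median 0.32).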

How the data were processed

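RNA was sequenced from 33 libraries, 3 for each of 11 conditions. The authors trimmed the reads, aligned them with Hisat2 to the assembly of the monospore strain JA-15036, added genes with StringTie, counted reads with featureCounts 1.5.0-p3 and deposited the values as FPKM. The strand setting, the handling of multiply matching reads and the FPKM formula were not found in the sources consulted. Multiplied by gene length, FPKM gave whole multiples of 1 unit per library for 100% of the values (within 1e-06), so reads could be recovered; relative to these reads the divisor of the authors varied from 0.742 to 1.22, which shows a scaling factor per library.

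Differences were tested on log2(FPKM + 0.1), which understates changes of low genes, with limma 3.58.1 in R 4.3.3 (trended variance, Benjamini-Hochberg adjustment over all genes tested) after leaving out genes below a mean of 0.5 FPKM; all 5 members passed. Calls needed an adjusted p under 0.05 together with a log2 change of 1 or more in size. Mycelia and primordia, and primordia and button fruit bodies, were fitted on 6 libraries each, whole fruit bodies on 9 and tissues on 18, so that consecutive steps share libraries. An exact permutation test of 3 against 3 libraries cannot go below 0.1 and was not used. The fits were also run on simulated data with known changes, drawn with an even spread and without libraries that stand apart. That run cannot speak for groups as uneven as the real tissues and whole fruit bodies. Tables were made with Python 3.11.15.

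The members and gene lists were chosen with earlier results of these data known. Every member is named, with the 5 genes most correlated with A02061 (also the highest member) over condition means, and at most the 2 largest rises and falls of each list. Labels pair no replicate numbers; deviations of same-numbered libraries correlated above 0.1 in all 3 pairs only between primordia and button fruit bodies (0.112, 0.285 and 0.115). Alternatives were a pseudocount of 1, no filter, a filter at 5 FPKM, quantile normalization, library totals, 1 fit of all libraries, a replicate block, voom on recovered reads, leaving out each library and, added after seeing the data, leaving out the 6 libraries that stand apart.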

Additional observations from a re-analysis of the deposited data

How the results depend on the processing

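For 28 of the log2 changes described here, 445 values under the alternatives were tallied. Of these, 391 kept their direction and side of the threshold, 34 lost the call, 16 gained one and 4 changed sign. The tally leaves out other described changes, some of which gained a call or changed sign. Among those left out are A08292 from primordia to button and A00406 from harvest to maturation whole fruit body. The tissue differences of A02012 and the stipe changes of A02012 and A02039 are left out too. The counts of called members kept within 1.5 times in 142 of 185 cases. These include many cases of 0 against 0 and some of 2 against 3, and which members were called was not compared. For button whole fruit body against primordia only 3 of all genes were called, so that a count of 0 was nearly fixed. For primordia against mycelia the count was 4 under every alternative but 1 fit of all libraries, where it was 3. With voom the count was 0 of 5 for harvest against button whole fruit body and 1 for maturation against harvest. With no filter these were 0 and 1, and 1 for button pileus against stipe. A pseudocount of 1 gave 1 for maturation against harvest whole fruit body. Without the libraries that stand apart the counts were 1 for button whole fruit body against primordia, 0 and 1 for the next steps of the whole fruit body, 4 for the button and maturation tissues, 1 and 2 for the steps of the pileus, 1 for the stipe from button to harvest and 4 for the change between stages, and A02061 went from harvest to maturation whole fruit body by 0.63 in place of -1.22.

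On leaving out 1 library the counts ranged from 0 to 1 for button whole fruit body against primordia and were 0 for harvest against button. They ranged from 1 to 2 for maturation against harvest, 0 to 3 for the button tissues and 1 to 2 for the harvest and maturation tissues. They were 0 to 2 for the pileus from harvest to maturation, and 0 to 1 for the stipe from button to harvest and the change between stages. Of the 9252 to 9348 genes tested in these fits, the number called moved too. It was 0 to 379, 0 to 3 and 418 to 2047 for the steps to the button, harvest and maturation whole fruit body. For the button, harvest and maturation tissues it was 993 to 2427, 2513 to 3161 and 1644 to 3486. For these pileus and stipe steps and the change between stages it was 1362 to 1905, 754 to 1226 and 561 to 2202. The member counts cannot be read apart from these. Among the tallied changes, signs turned for A08292 in primordia (-0.019 to 0.35) and A02061 in the maturation whole fruit body (-2.33 to 0.82). The sign of the change of A02012 between stages turned as well (-2.12 to 0.093). Outside the tally, the A02012 difference between button pileus and stipe turned without button stipe 1. The calls rest in particular on button stipe 1 and 2, harvest pileus 3 and maturation pileus 3.

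With the replicate number as a block, the counts of called members were 0 for harvest against button whole fruit body, 1 for maturation against harvest and 1 for the button tissues, and no other call on a member changed. Only between primordia and button fruit bodies did the data hint at pairing, where the block left the count of members at 0 and that of all genes went from 3 to 0.

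Scaling to library totals moved the median log2 change of all genes from -0.04 to 0.31 in primordia, from 0.01 to 0.37 in the harvest tissues and from 0.01 to -0.39 in the pileus from harvest to maturation; quantile normalization moved the first to 0.16. Of all genes, harvest against button whole fruit body gave 22 calls, against 0 with no filter, the block or voom, 11 with quantile normalization and 540 in 1 fit of all libraries, and primordia against button 3, against 32 in that fit and 237 without the libraries that stand apart. Without the libraries that stand apart the button and maturation whole fruit bodies are 1 library each, assumed to vary like the other groups of the fit.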
